A study of Rattus norvegicus with 32 samples.

Results

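The phosphoinositide 3-kinase (PI3K), AKT and mTOR pathway was followed through 8 genes, Pik3ca, Pik3r1, Inpp5d, Akt1, Akt2, Ilk, Rps6kb1 and Eif4ebp1, of the 12573 genes that the platform's probe-to-gene table names on the array. The probes were found by gene symbol, and the genes were chosen with earlier results of these data known. The array carried 14 probes for them among 33849 probes. Of these, 8 probes for 7 of the genes were among the 17635 probes that passed the filter, which asked for 1 or more groups with all 4 arrays above background. Pik3r1 had no probe that passed. Some of the probes passed through few groups: Akt2 through TBI at 4 h alone, Rps6kb1 through Sham and TBI at 4 h, and Eif4ebp1 through Sham and TBI at 4 h and TBI at 24 h. A probe that passed through the groups where it is high had to differ from the others, which bears on each value of these probes.

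The cells were hippocampal CA3 neurons of Sprague-Dawley rats, taken by laser capture microdissection. The methods describe the rats as adult males and the captured neurons as negative for Fluoro-Jade, a stain of degenerating neurons. Rats of the TBI groups had a fluid percussion traumatic brain injury (TBI) and received saline (TBI), carbenoxolone at 30 mg/kg (TBI+CB) or metyrapone at 100 mg/kg (TBI+MT) under the skin. Metyrapone inhibits corticosterone synthesis, and carbenoxolone inhibits the enzyme that regenerates active glucocorticoid within cells. The labels place the injection 90 min before injury, whereas the methods give a shorter interval. Sham-injured rats served as controls: those of the 4 h group are labelled untreated, and the treatment field of the 24 h group gives only the time. No group had a drug without injury. Tissue was taken at 4 h or 24 h, which gave 8 groups of 2 pools, and each pool joined the RNA of 3 to 6 rats and was amplified in 2 rounds. The spread between pools is therefore not the spread between rats, and the p-values given here rest on 2 pools a group, or on 1 where the spots of a pool were masked, as for Rps6kb1 in TBI+CB 24 h. In bulk samples of this kind, fewer cells of a type and less RNA per cell cannot be told apart.

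Each pool was hybridised to 2 arrays (32 in all), whose values were averaged. A level is the raw intensity divided by the median of its array, so that 1 is the array median, and levels are set side by side only within a probe. Between 26.1% and 65.9% of the probes of an array were above background. The share was lowest in TBI+MT 24 h pool 1 (26.1% and 28.8%) and TBI+CB 24 h pool 2 (30.0% and 30.2%), called the dim pools here. By their leading digits, slide serial numbers fell into 3 sets, called slide runs here. That these are hybridisation batches is an assumption. The first run held both Sham 4 h pools and TBI 4 h pool 1, and the third held both drug groups at 24 h. The second held TBI 4 h pool 2, both drug groups at 4 h, Sham 24 h and TBI 24 h. Drug treatment at 24 h and slide run therefore cannot be told apart when the drug groups are set against TBI. Of 8 listed pyramidal neuron markers, 4 had a probe and 3 passed the filter, while Snap25 did not. Those 3, Slc17a7, Camk2a and Grik4, were above background on all 32 arrays, and so were Gfap of astrocytes and Tyrobp of microglia. Other glial markers were not: C1qb, Cd68 and Cd53 of microglia were each above background on no array of 1 or more groups. Glial transcripts were thus measured in the captured material.

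PI3K is recruited by receptors of growth factors and by their adaptors, and it phosphorylates a membrane lipid that draws the kinase AKT to the plasma membrane. Lipid phosphatases reverse this step. Active AKT restrains pro-apoptotic and stress-linked proteins and, through mTOR, raises protein synthesis. In neurons the pathway is known for its part in survival, growth and synaptic plasticity.

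The 250 bases before the annotated start of Inpp5d and Rps6kb1 are shown because their probes were the members with a fitted unadjusted p under 0.05 in a drug group against TBI at 24 h. The sequences are those of RefSeq on build GRCr8, from chr9:95735283-95735532 on the plus strand for Inpp5d and from chr10:71865212-71865461 on the minus strand for Rps6kb1. Capitals mark matches, on either strand, to the glucocorticoid receptor half-site TGTTCT, the GC box GGGCGG or the NRF1 core GCGCATGC.
Inpp5d: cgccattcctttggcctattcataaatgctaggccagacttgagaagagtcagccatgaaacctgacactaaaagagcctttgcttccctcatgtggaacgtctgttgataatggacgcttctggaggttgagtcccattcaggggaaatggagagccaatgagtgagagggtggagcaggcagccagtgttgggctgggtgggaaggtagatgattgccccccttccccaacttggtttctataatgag
Rps6kb1: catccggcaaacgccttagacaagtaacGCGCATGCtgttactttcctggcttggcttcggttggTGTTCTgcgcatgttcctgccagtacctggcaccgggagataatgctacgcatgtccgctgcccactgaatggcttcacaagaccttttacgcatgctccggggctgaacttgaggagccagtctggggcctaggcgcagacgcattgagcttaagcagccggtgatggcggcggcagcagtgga

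The window of Inpp5d held none of the motifs, and that of Rps6kb1 held 1 glucocorticoid receptor half-site and 1 NRF1 core. Of the 27457 promoters of the same length, 17.1% held the half-site, 32.4% the GC box and 2.38% the NRF1 core. An entry was found for 7 of the 8 members. Akt2 and Pik3ca each held 1 half-site, Pik3r1 held 7 GC boxes and Ilk held 2, and Akt1 held none of the motifs. A match is a description of the letters and not a binding site.

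No probe of the pathway passed an adjusted p of 0.05 (limma, Benjamini-Hochberg over all probes) in any of the 11 comparisons. No other probe did either, so that the share called was 0% in each, over 17593 to 17619 probes tested. At an unadjusted p under 0.05, TBI against sham gave 0 of the 8 member probes at 4 h, against 3.34% of all probes, and 1 at 24 h (Eif4ebp1), against 1.84%. TBI+MT against TBI gave 0 at 4 h (4.73% of all probes) and 1 at 24 h (Inpp5d, 5.51%). TBI+CB against TBI gave 1 at 4 h (Rps6kb1, 3.44%) and 2 at 24 h (Inpp5d and Rps6kb1, 8.22%). TBI+MT against TBI+CB gave 0 at 4 h (3.11%) and 0 at 24 h (5.07%). The difference between the times was below that p for 0 probes in TBI against sham (2.35%), for 2 in TBI+MT against TBI (Inpp5d and Akt2, 4.67%) and for 2 in TBI+CB against TBI (Inpp5d and Rps6kb1, 7.75%). The difference of Akt2, and both values of Rps6kb1 that involve TBI 24 h, rest on groups with no array above background, and without them the counts of 2 are each 1. With 8 probes, counts of 0 to 2 do not set the pathway apart from these shares, and the values below describe the pools that were measured.

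**Figure D1:**
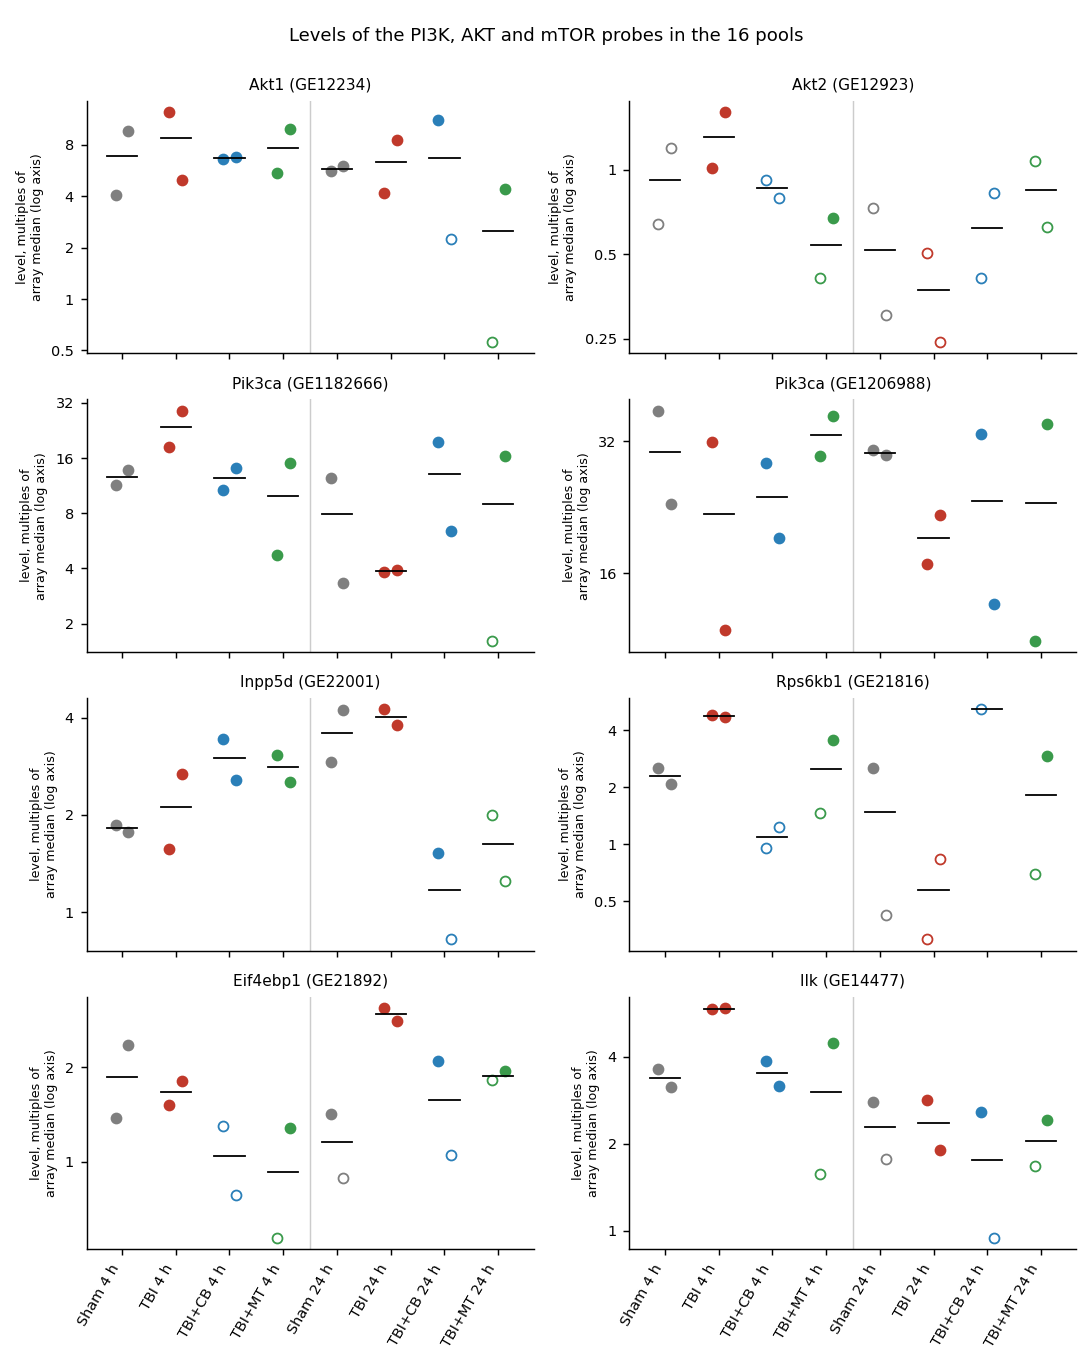
Levels of the 8 probes that passed the filter, in multiples of the array median on log axes, by group. Points are pools (2 per group), lines are group means, and open points are pools that were not above background on both arrays. TBI 4 h held the highest levels of Ilk (5.85 and 5.90), and TBI 24 h those of Eif4ebp1 (3.08 and 2.80).

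Pik3ca encodes the alpha catalytic subunit of PI3K, and 2 of its 4 probes passed the filter. Probe GE1182666 was above background on 31 of 32 arrays. Its levels at 4 h were 11.4 and 13.8 in Sham, 18.5 and 29.0 in TBI, 10.8 and 14.1 in TBI+CB, and 4.74 and 15.0 in TBI+MT. Both TBI pools were thus above all other pools at 4 h. At 24 h the levels were 12.4 and 3.34 in Sham, 3.83 and 3.90 in TBI, 19.7 and 6.43 in TBI+CB, and 1.61 and 16.4 in TBI+MT, so that the TBI pools lay within the range of the Sham and TBI+MT pools and below both TBI+CB pools. TBI+MT was lower than TBI at 4 h by a log2 fold change of -1.46 ± 1.01 (SE, limma adjusted p = 0.74), and within the second slide run it was -1.78. TBI+CB was higher than TBI at 24 h by 1.54 ± 1.01 (adjusted p = 0.63, limma). Each of these rested in good part on 1 pool: the log2 fold change was -0.62 without TBI+MT 4 h pool 1 and 0.73 without TBI+CB 24 h pool 1. TBI+MT against TBI+CB at 24 h was -1.13 ± 1.01 and turned to 0.54 without the dim TBI+MT pool 1.

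The other Pik3ca probe, GE1206988, was above background on all 32 arrays. Its levels at 4 h were 37.6 and 23.1 in Sham, 31.8 and 11.9 in TBI, 28.6 and 19.3 in TBI+CB, and 29.6 and 36.6 in TBI+MT. At 24 h they were 30.5 and 29.8 in Sham, 16.8 and 21.7 in TBI, 33.2 and 13.6 in TBI+CB, and 11.2 and 35.1 in TBI+MT. The Sham and TBI pools did not overlap at 24 h, where TBI was lower (log2 fold change -0.66 ± 0.68, limma adjusted p = 1.00). None of its 8 comparisons at matched times was over 2-fold, with log2 fold changes from -0.66 to 0.76. The Pik3ca probes disagreed in sign at 4 h, where TBI against sham was 0.89 ± 1.01 by GE1182666 and -0.60 ± 0.68 by GE1206988 on the log2 scale. Across the 16 pools their log2 levels correlated with Pearson's r = 0.35. The remaining probes, GE1148762 and GE19439, were above background on none of the 32 arrays. Pik3r1, the regulatory subunit that binds receptors and adaptors, had a single probe, GE20112, which was above background on 0 of 32 arrays, with levels of 0.10 to 1.01 over the 16 pools, and gave no level to compare.

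Inpp5d encodes SHIP, a lipid phosphatase of the PI3K product that is known mainly from blood cells and microglia. Its probe GE22001 gave 1.86 and 1.78 in Sham 4 h, 1.57 and 2.67 in TBI 4 h, 3.44 and 2.56 in TBI+CB 4 h, and 3.07 and 2.54 in TBI+MT 4 h. At 24 h it gave 2.92 and 4.23 in Sham, 4.24 and 3.80 in TBI, 1.52 and 0.826 in TBI+CB, and 1.99 and 1.25 in TBI+MT. All 4 pools of the drug groups at 24 h were below all 4 pools of Sham and TBI at that time. The share of all probes with such a separation was not counted. TBI+CB was lower than TBI by a log2 fold change of -1.84 ± 0.50 (95% interval -2.93 to -0.75, limma adjusted p = 0.59). TBI+MT was lower than TBI by -1.35 ± 0.50 (-2.44 to -0.26, limma adjusted p = 0.84). At 4 h the same comparisons were 0.53 ± 0.50 for TBI+CB and 0.45 ± 0.50 for TBI+MT. The difference between the times was -2.38 ± 0.71 for TBI+CB (limma adjusted p = 0.57) and -1.79 ± 0.71 for TBI+MT (adjusted p = 0.98, limma). TBI against sham was 0.17 ± 0.50 at 4 h and 0.19 ± 0.50 at 24 h.

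The direction of the Inpp5d differences at 24 h did not rest on a single pool or on the dim pools. Leaving out each pool in turn gave log2 fold changes of -2.28 to -1.40 for TBI+CB and -1.68 to -1.01 for TBI+MT, and without both dim pools they were -1.40 and -1.68. Both drug groups at 24 h shared the third slide run, which held no TBI or Sham pool. The probe was above background on all 4 arrays of each other group, and on 2 of 4 in TBI+CB 24 h and 1 of 4 in TBI+MT 24 h. Neither array of the dim pools, with levels of 0.826 in TBI+CB and 1.99 in TBI+MT, was above background. The lowest level above background there was 1.96 and 1.94 in TBI+CB pool 2, and 1.79 and 2.02 in TBI+MT pool 1. The sizes of the fitted differences therefore rest in part on levels that were not measured. The second Inpp5d probe, GE20655, was above background on none of the 32 arrays.

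Microglia and leukocyte markers were set beside Inpp5d, with 10 of the 12 listed genes passing the filter. Their summed level was 61.7 and 171 in Sham 4 h, 49.8 and 67.8 in TBI 4 h, 34.5 and 51.9 in TBI+CB 4 h, and 37.5 and 33.9 in TBI+MT 4 h. At 24 h it was 41.5 and 72.9 in Sham, 156 and 139 in TBI, 161 and 182 in TBI+CB, and 178 and 124 in TBI+MT. The markers were thus higher in TBI than in Sham at 24 h, with 9 of 10 genes higher, 5 of them over 2-fold, and a median log2 fold change of 1.17, while Inpp5d was 0.19 ± 0.50. In the drug groups at 24 h the summed level spanned that of TBI, with median log2 fold changes against TBI of 0.10 for TBI+CB and -0.25 for TBI+MT, beside -1.84 and -1.35 for Inpp5d. The number of these 10 markers above background on all 4 arrays of a group was 8 in TBI 24 h, 3 in TBI+CB 24 h and 4 in TBI+MT 24 h, and 3 of 10 were over 2-fold lower in TBI+CB than in TBI at 24 h and 1 was over 2-fold higher. Markers of endothelium and pericytes were lower than in TBI at 24 h for 7 of 7 genes in both drug groups. Their median log2 fold changes were -0.96 for TBI+CB (3 over 2-fold lower) and -0.83 for TBI+MT (2 over 2-fold lower). The medians of all probes were -0.04 and -0.39, with 15.2% and 13.8% over 2-fold lower. With TBI+CB, lower and higher genes numbered 4 and 6 for microglia and leukocytes, 5 and 1 for oligodendrocytes and 2 and 4 for astrocytes. They numbered 3 and 3 for interneurons and 2 and 1 for pyramidal neurons. With TBI+MT, in the same order, they numbered 8 and 2, 4 and 2, 4 and 2, 4 and 2, and 2 and 1. Over the 16 pools, the summed levels ranged from 83.9 to 306 for 3 pyramidal neuron markers, 65.5 to 136 for 6 interneuron markers, 96.9 to 505 for 6 astrocyte markers, 82.4 to 303 for 6 oligodendrocyte markers and 23.7 to 82.9 for 7 markers of endothelium and pericytes. The part of these cell types in the values of the pathway genes was not tested.

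**Figure D2:**
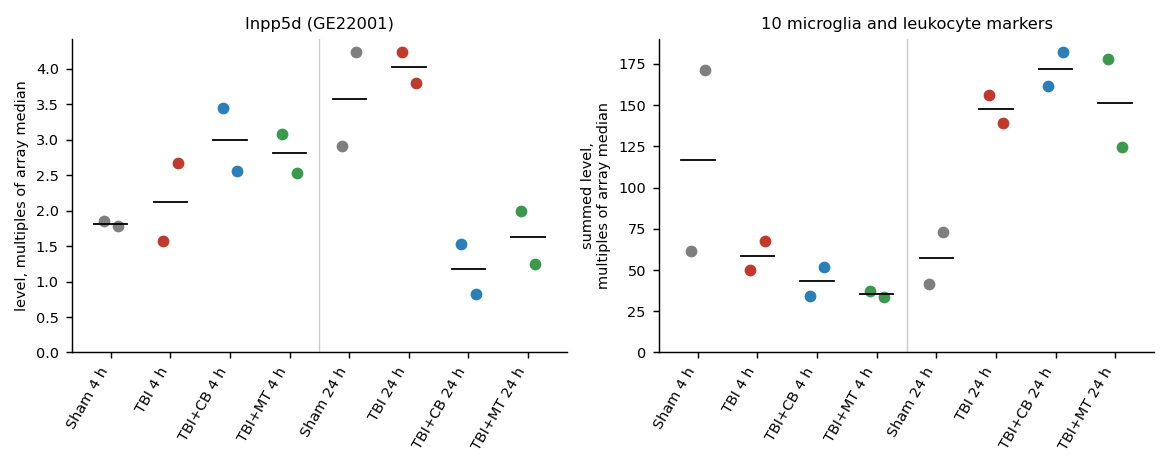
Level of Inpp5d (left) and summed level of 10 microglia and leukocyte markers (right), both in multiples of the array median, by group. Points are pools and lines are means of 2 pools. In the drug groups at 24 h Inpp5d was 0.826 to 1.99, below TBI (4.24 and 3.80), while the marker sum of 124 to 182 spanned that of TBI (156 and 139).

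Akt1 and Akt2 encode the kinases at the centre of the pathway. Akt1 (GE12234) was above background on 30 of 32 arrays. Its levels at 4 h were 4.08 and 9.65 in Sham, 12.5 and 5.02 in TBI, 6.63 and 6.83 in TBI+CB, and 5.45 and 9.96 in TBI+MT, and the groups overlapped. At 24 h they were 5.61 and 6.03 in Sham, 4.16 and 8.52 in TBI, 11.1 and 2.24 in TBI+CB, and 0.561 and 4.44 in TBI+MT. The lowest value, 0.561, was that of the dim TBI+MT pool 1, whose arrays disagreed: one gave 3.14 and the other was not above background and set to 0.1. TBI+MT was lower than TBI at 24 h by a log2 fold change of -1.92 ± 0.98 (limma adjusted p = 0.91), which was -0.42 without that pool, and lower than TBI+CB by -1.66 ± 0.98 (limma adjusted p = 0.79), which was -0.17 without it. In the other 6 comparisons at matched times Akt1 lay between -0.25 and 0.33 on the log2 scale, with an SE of 0.98 in each, so that a 2-fold difference in either direction was within the intervals. Its second probe, GE19486, was above background on 1 of 32 arrays.

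Akt2 (GE12923) was above background on 9 of 32 arrays, with all 4 arrays above it in TBI 4 h alone. The levels at 4 h were 0.640 and 1.19 in Sham, 1.01 and 1.60 in TBI, 0.920 and 0.793 in TBI+CB, and 0.411 and 0.670 in TBI+MT. The lowest level above background on the arrays of TBI+CB 4 h pool 1 (1.38 and 1.39) and TBI+MT 4 h pool 1 (1.02 and 1.03) was above the level of TBI 4 h pool 1, so that the order of these pools was not measured. The fitted log2 fold change of TBI+MT against TBI was -1.28 ± 0.64 (limma adjusted p = 0.74), with TBI+MT above background on 2 of 4 arrays. No array of TBI+CB 4 h was above background. By the lowest level above background on its arrays, TBI was at least 1.16-fold higher (limma adjusted p = 0.96). Such bounds are approximate, since some spots not above background lay above that level, and a small one gives no sure direction. At 24 h the levels were 0.729 and 0.304 in Sham, 0.504 and 0.243 in TBI, 0.411 and 0.823 in TBI+CB, and 1.07 and 0.623 in TBI+MT. Neither TBI nor TBI+MT had an array above background at 24 h, so that no fold is given between them, nor a direction for the difference between the times. A second probe, GE20335, was above background on 1 of 32 arrays.

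Ilk encodes integrin-linked kinase, a scaffold at integrin adhesions that acts upstream of AKT. Its probe GE14477 gave 3.64 and 3.14 in Sham 4 h, 5.85 and 5.90 in TBI 4 h, 3.86 and 3.16 in TBI+CB 4 h, and 1.57 and 4.48 in TBI+MT 4 h. The TBI 4 h pools were above all other 14 pools. TBI against sham at 4 h was 0.80 ± 0.62 on the log2 scale (limma adjusted p = 0.94). The drug groups were lower than TBI at 4 h, by -1.15 ± 0.62 for TBI+MT and -0.75 ± 0.62 for TBI+CB (limma adjusted p = 0.74 and 0.96). Without TBI+MT 4 h pool 1, the first of these was -0.39, and under quantile normalization of all pools it was -0.83. At 24 h the levels were 2.79 and 1.78 in Sham, 2.84 and 1.90 in TBI, 2.58 and 0.942 in TBI+CB, and 1.67 and 2.41 in TBI+MT. All groups overlapped there, and TBI against sham was 0.06 ± 0.62.

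Rps6kb1 encodes a ribosomal protein S6 kinase, the mTOR target that promotes translation. Its probe GE21816 was above background on 17 of 32 arrays. At 4 h the levels were 2.52 and 2.09 in Sham, 4.83 and 4.70 in TBI, 0.955 and 1.23 in TBI+CB, and 1.46 and 3.54 in TBI+MT. The TBI pools were the highest at 4 h. The TBI+CB pools gave the lowest levels, below the Sham pools, but neither array of TBI+CB pool 1 was above background. Of the 4 TBI+CB arrays only 1 was above background, and TBI+CB was lower than TBI by a fitted log2 fold change of -2.14 ± 0.92 (limma adjusted p = 0.96), with -2.12 within the second slide run and -2.32 to -1.96 when each pool was left out in turn. TBI against sham was 1.06 ± 0.92 (limma adjusted p = 0.94) and TBI+MT against TBI was -1.07 ± 0.92 (limma adjusted p = 0.74). The former was 0.71 and the latter -0.78 under quantile normalization, and TBI+MT against TBI was -0.43 without TBI+MT 4 h pool 1.

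At 24 h the levels of Rps6kb1 were 2.54 and 0.420 in Sham, 0.314 and 0.838 in TBI, and 0.694 and 2.94 in TBI+MT. In TBI+CB 24 h the level was 5.16 in pool 1 and missing in pool 2, because 3 of the 4 spots were masked, and the value rested on 1 spot of 1 array. No TBI 24 h array was above background, so that only the approximate bound described for Akt2 is given. TBI+CB was therefore at least 4.46-fold higher than TBI, with that single spot as the TBI+CB group. For TBI+MT the bound was 1.23-fold higher (limma adjusted p = 0.92), with 2 of its 4 arrays above background. Neither array of TBI+MT pool 1 (0.694) was above background, and that level was below TBI pool 2 (0.838). The bound for TBI+MT therefore gives no sure direction. Sham 24 h against TBI gives no such bound, and no direction is given for it: the fitted log2 fold change of TBI against sham was -1.01 ± 0.92, and 0.29 without Sham 24 h pool 1. No value is given for the difference between the times, since TBI 24 h had no array above background. The pool of a group with the higher array median had the higher Rps6kb1 level in 7 of the 7 groups with a pair of values, in 7 of 8 for Pik3ca GE1206988, in 6 of 8 for Akt1 and Pik3ca GE1182666, in 5 of 8 for Ilk, in 4 of 8 for Eif4ebp1 and in 2 of 8 for Akt2 and Inpp5d. Over all probes, between 32.3% and 80.0% were higher in the brighter pool, by group. The part of array brightness in these values was not tested.

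Eif4ebp1 encodes a repressor of cap-dependent translation that mTOR switches off. Its probe GE21892 was above background on 21 of 32 arrays. The levels were 1.37 and 2.35 in Sham 4 h, 1.52 and 1.81 in TBI 4 h, 1.30 and 0.783 in TBI+CB 4 h, and 0.572 and 1.28 in TBI+MT 4 h. At 4 h the TBI pools were within the range of the Sham pools, and all pools of the drug groups gave levels below both. Only 1 of 4 TBI+CB arrays and 2 of 4 TBI+MT arrays were above background there. The lowest level above background on the arrays of TBI+CB 4 h pool 1 (1.39 and 1.38) was above Sham pool 1. The order of these pools was thus not measured. At 24 h the levels were 1.42 and 0.890 in Sham, 3.08 and 2.80 in TBI, 2.10 and 1.05 in TBI+CB, and 1.82 and 1.94 in TBI+MT. The TBI 24 h pools were above all other 14 pools. TBI against sham was 1.39 ± 0.56 on the log2 scale (95% interval 0.16 to 2.62, limma adjusted p = 1.00), and 1.05 to 1.72 when each pool was left out in turn. Both groups lay in the second slide run. Sham 24 h was above background on 2 of its 4 arrays. On both arrays of its pool 2 the lowest level above background was 1.55, above the 0.890 of that pool. The size of the fitted difference therefore rests in part on a level that was not measured. TBI+CB against TBI at 24 h was -0.98 ± 0.56 and TBI+MT against TBI was -0.65 ± 0.56 (limma adjusted p = 0.61 and 0.93). At 4 h TBI against sham was -0.11 ± 0.56, and the difference between the times was 1.50 ± 0.80 (limma adjusted p = 1.00).

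**Figure D3:**
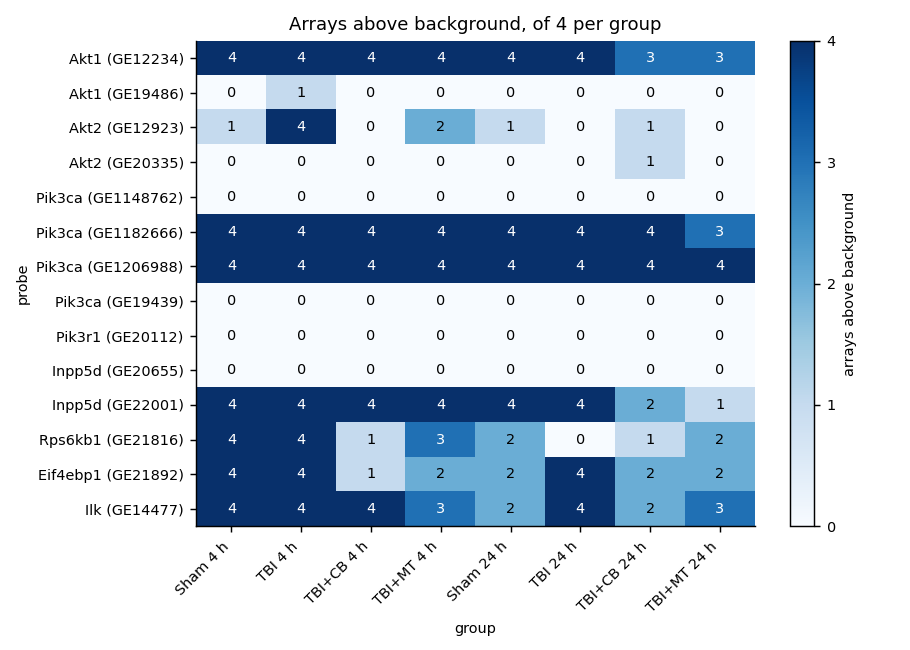
Number of arrays above background, of 4 per group, for each of the 14 probes (rows) in the 8 groups (columns). Pik3ca GE1206988 was above background on all 32 arrays, and 4 probes, including the only one for Pik3r1, on none.

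By the order of the 8 group means, most neighbouring groups overlapped in their pools. The neighbours that did not overlap were Sham 24 h above TBI+MT 24 h for Akt1, Sham 24 h above TBI+CB 4 h for Pik3ca GE1206988, TBI 4 h above TBI+CB 4 h for Ilk, and TBI 24 h above TBI+MT 24 h for Eif4ebp1. For Rps6kb1 they were the single TBI+CB 24 h value above TBI 4 h, TBI 4 h above TBI+MT 4 h, and TBI+CB 4 h above TBI 24 h. How many of all probes separate in such ways was not counted. These separations, and those given above for Pik3ca, Inpp5d, Ilk, Rps6kb1 and Eif4ebp1, therefore do not set the members apart from other probes. Within groups, the members' median fold between the pools ran from 1.30 in TBI+CB 4 h to 2.44 in TBI+CB 24 h, compared with 1.27 to 2.33 over all probes.

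**Figure D4:**
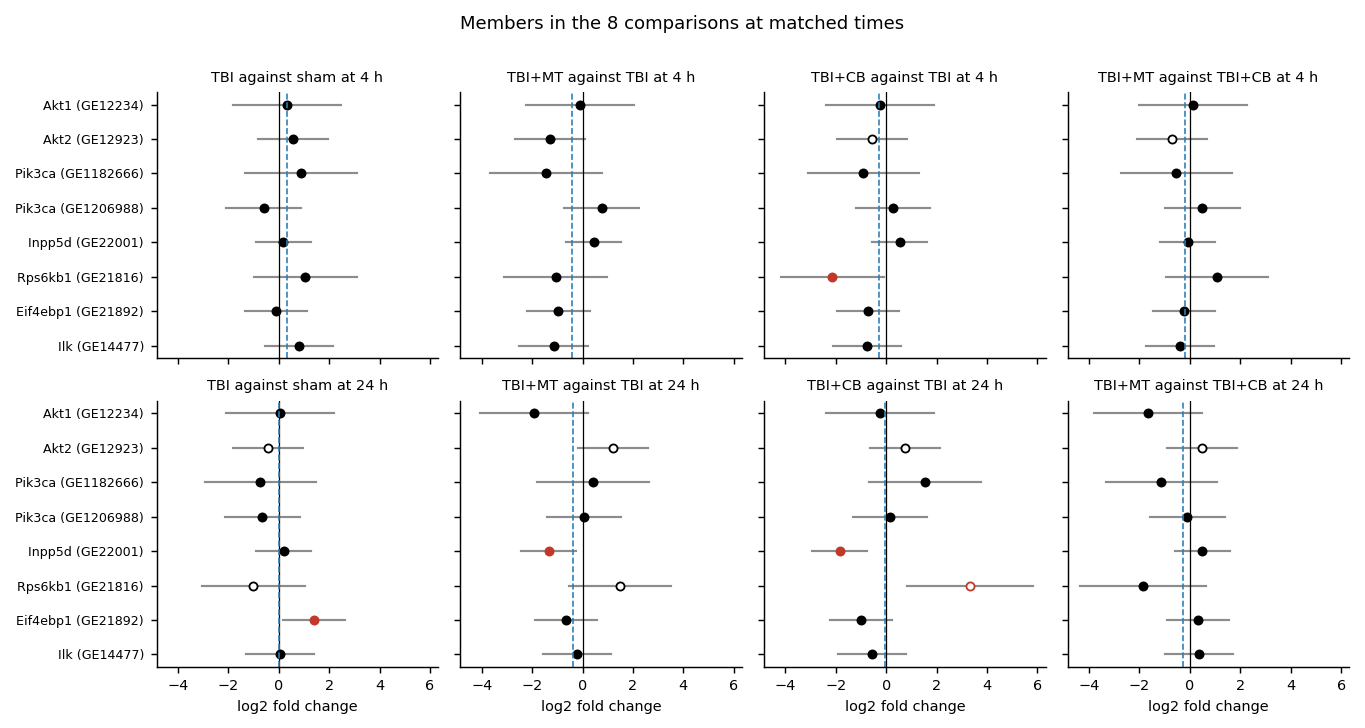
Log2 fold change of the 8 probes in the 8 comparisons at matched times. Points are limma estimates, bars are 95% intervals, dashed lines are the median of all probes, red marks an unadjusted p under 0.05, and open points are comparisons in which a group had no array above background, so that the fitted value is not a measured fold. The filled red points were Rps6kb1 in TBI+CB against TBI at 4 h (-2.14), Inpp5d in both drug groups against TBI at 24 h (-1.84 and -1.35), and Eif4ebp1 in TBI against sham at 24 h (1.39).

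By the 2-fold threshold that the methods use, 19 of the 64 fitted values of the members at matched times were over 2-fold, and 15 of these had an array above background in both groups. The methods first kept only genes whose replicates varied by less than 2-fold. Such a filter, as applied here, passed 0 member probes, so that these counts are not those of the full rule. The counts below are of fitted values, and those without such an array are named. The injury comparison asks how TBI altered these neurons, and gave 1 probe higher at 4 h (Rps6kb1), where 15.9% of all probes were higher and 7.35% lower. At 24 h it gave 1 higher (Eif4ebp1) and 1 lower (Rps6kb1), where the shares were 4.09% and 6.71%. That Rps6kb1 value is without an array above background in TBI. The median log2 fold change was 0.44 for the members and 0.33 for all probes at 4 h, and -0.20 and 0.01 at 24 h, or 0.05 for the 6 member probes with an array above background in both groups.

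The drug comparisons ask what treatment altered in injured rats. TBI+MT against TBI at 4 h gave 0 probes higher and 4 lower (Akt2, Pik3ca GE1182666, Rps6kb1 and Ilk), where 8.21% of all probes were higher and 25.1% lower. The medians were -1.01 for the members and -0.40 for all probes. TBI+CB against TBI at 4 h gave 0 higher and 1 lower (Rps6kb1), against 4.55% and 15.9%, with medians of -0.65 and -0.28. The median of all probes was itself shifted at 4 h, and relative to it the values of TBI+MT against TBI were -1.05 for Pik3ca GE1182666, -0.88 for Akt2, -0.75 for Ilk and -0.66 for Rps6kb1. Quantile normalization moved the median of all probes from -0.40 to -0.01 in TBI+MT against TBI, from -0.28 to 0.01 in TBI+CB against TBI and from 0.33 to 0.03 in TBI against sham. These comparisons share the TBI 4 h pools.

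At 24 h TBI+MT against TBI gave 2 probes higher (Akt2 and Rps6kb1) and 2 lower (Akt1 and Inpp5d), where 5.5% of all probes were higher and 13.8% lower. TBI+CB against TBI gave 2 higher (Pik3ca GE1182666 and Rps6kb1) and 1 lower (Inpp5d), against 14.3% and 15.2%. The medians were -0.08 for the members and -0.39 for all probes with TBI+MT, and -0.05 and -0.04 with TBI+CB. Of these, the Akt2 value compares groups without an array above background, and both Rps6kb1 values are set against TBI, which had none. Without Akt2 and Rps6kb1, the counts were 0 higher and 2 lower with TBI+MT (median -0.43), and 1 higher and 1 lower with TBI+CB (median -0.41). The median of all probes in TBI+MT against TBI was -0.25 under quantile normalization, and relative to the -0.39 found here Akt1 was -1.52 and Inpp5d -0.95. The drugs were also set against each other, at their different doses. TBI+MT against TBI+CB at 4 h gave 1 higher (Rps6kb1) and 0 lower, against 8.25% and 5.32%. At 24 h it gave 0 higher and 3 lower (Akt1, Pik3ca GE1182666 and Rps6kb1), against 7.25% and 22.4%, and both groups lay in the third slide run. Each of these 3 had its lower TBI+MT value in the dim pool 1.

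**Figure D5:**
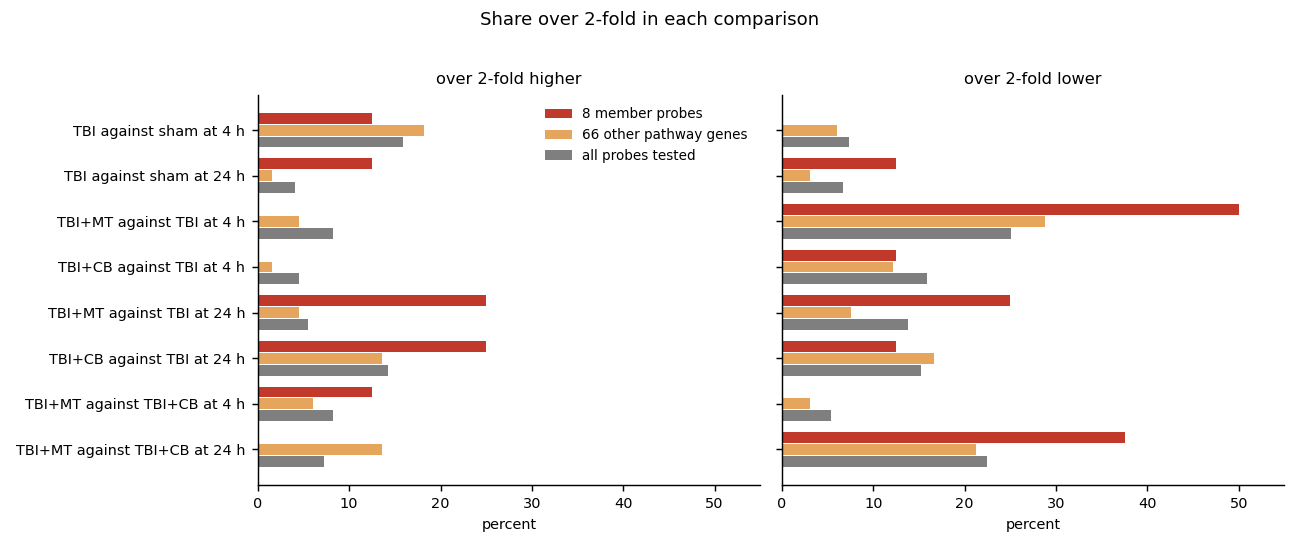
Share of probes over 2-fold higher (left) and lower (right) in each comparison at matched times, in percent, for the 8 member probes, 66 other genes of the pathway and all probes tested, by fitted values. The members' highest share, 4 of 8 lower in TBI+MT against TBI at 4 h, stands beside 25.1% of all probes.

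The wider pathway was taken as 101 further genes, of which 87 had a probe and 66 passed the filter: 7 receptors and adaptors, 4 PI3K subunits, 7 phosphoinositide phosphatases, 7 genes of AKT, its kinase and its phosphatases, 9 AKT targets, 15 genes of the mTOR complexes and their regulators, 11 of the translation arm and 6 of the ILK complex. None passed an adjusted p of 0.05 in any comparison. In TBI against sham at 4 h, 12 were over 2-fold higher (18.2%, beside 15.9% of all probes) and 4 lower (6.06% beside 7.35%). The median log2 fold change was 0.33 beside 0.33 for all probes. At 24 h the counts were 1 (1.52% beside 4.09%) and 2 (3.03% beside 6.71%), with a median of -0.02 beside 0.01. In TBI+MT against TBI at 4 h they were 3 higher (4.55% beside 8.21%) and 19 lower (28.8% beside 25.1%), with a median of -0.67 beside -0.40. At 24 h they were 3 (4.55% beside 5.5%) and 5 (7.58% beside 13.8%), with a median of -0.33 beside -0.39. In TBI+CB against TBI at 4 h they were 1 (1.52% beside 4.55%) and 8 (12.1% beside 15.9%), with a median of -0.29 beside -0.28. At 24 h they were 9 (13.6% beside 14.3%) and 11 (16.7% beside 15.2%), with a median of 0.08 beside -0.04. In TBI+MT against TBI+CB at 4 h they were 4 (6.06% beside 8.25%) and 2 (3.03% beside 5.32%), with a median of -0.36 beside -0.20. At 24 h they were 9 (13.6% beside 7.25%) and 14 (21.2% beside 22.4%), with a median of -0.37 beside -0.29.

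The genes with the smallest unadjusted p among these 66 are named for each comparison, and all adjusted p-values were over 0.05. In TBI against sham they were Chuk, a kinase of the NF-kappaB inhibitor (at least 3.46-fold higher, with no Sham 4 h array above background), Nfkbia, that inhibitor (log2 fold change 1.58), and the neurotrophin receptor gene Ntrk2 (1.18) at 4 h. At 24 h they were the cell cycle inhibitor Cdkn1a (1.96), the mTOR complex subunit Mapkap1 (-0.84) and the stress-induced mTOR regulator Sesn1. For Sesn1 TBI was at least 1.07-fold lower by the approximate bound, which gives no sure direction. In TBI+MT against TBI they were Pik3cd, a catalytic subunit (-1.41), Nfkbia (-1.74) and the phosphatase gene Inpp5f (-1.21) at 4 h. At 24 h they were Ntrk2 (-2.49), Tsc1, a repressor of mTOR (-1.24), and the insulin receptor adaptor Irs2 (TBI+MT at least 1.92-fold lower). In TBI+CB against TBI they were Mapkap1 (-1.37), the mTOR-activating GTPase gene Rragd (-1.42) and Inpp5f (-1.08) at 4 h, and Irs2 (-1.79), Sesn1 (at least 2.82-fold higher) and the receptor gene Erbb3 (-1.44) at 24 h. In TBI+MT against TBI+CB they were the AKT target Gsk3b (1.58), Mapkap1 (1.22) and Cdkn1a (-1.83) at 4 h, and Ntrk2 (-2.94), Tbc1d7 of the TSC complex (-1.59) and the translation repressor gene Eif4ebp2 (2.98) at 24 h. For the difference between the times they were Sesn1, Nfkbia (-1.72) and Inpp4a (-1.12) in TBI against sham, Sesn1, Parvb and Nfkbia (2.23) in TBI+MT against TBI, and Sesn1, Tsc1 (-1.76) and Inpp5e in TBI+CB against TBI. Sesn1, Parvb and Inpp5e were above background on no TBI 24 h array, and no value is given for them there. Several other fold changes rest in part on arrays not above background. Of 4 arrays, those above background in TBI+CB 4 h numbered 1 each for Mapkap1 and Rragd and 2 for Gsk3b. In TBI+CB 24 h they numbered 1 for Eif4ebp2 (2.98 ± 1.44) and 2 each for Irs2 and Tsc1. In TBI+MT 24 h they numbered 2 for Ntrk2 and 1 for Tsc1. They numbered 2 for Cdkn1a in Sham 24 h, and 2 for Mapkap1 and 1 for Inpp4a in TBI 24 h.

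Among the genes that the study names in this pathway is Nfkbia, reported there as higher with both drugs than with TBI alone at 24 h. The study names Pik3r4, a gene of the wider list, in other pathways. Nfkbia was 12.7 and 13.8 in Sham 4 h, 24.1 and 65.4 in TBI 4 h, 19.7 and 21.5 in TBI+CB 4 h, and 8.41 and 16.8 in TBI+MT 4 h. Both TBI pools at 4 h were above every Sham and drug pool of that time, but the share of all probes with this order was not counted. The median log2 fold change of all probes at 4 h was 0.33 in TBI against sham. It was -0.40 in TBI+MT against TBI and -0.28 in TBI+CB against TBI. At 24 h Nfkbia was 9.74 and 5.41 in Sham, 6.09 and 7.19 in TBI, 16.0 and 8.06 in TBI+CB, and 3.75 and 23.1 in TBI+MT. Both TBI+CB pools were above both TBI pools there, while the TBI+MT pools lay on either side of them. Pik3r4, a regulatory subunit of the class of PI3K that acts in autophagy, was 26.0 and 22.8 in Sham 4 h, 45.5 and 55.8 in TBI 4 h, 26.0 and 31.9 in TBI+CB 4 h, and 13.5 and 37.7 in TBI+MT 4 h by probe GE14348. By this probe the TBI pools were again the highest at 4 h, an order not counted over all probes. TBI against sham was 1.05 ± 0.87 on the log2 scale (limma adjusted p = 0.94). Levels by GE14348 at 24 h were 24.2 and 9.64 in Sham, 10.4 and 17.3 in TBI, 42.3 and 18.3 in TBI+CB, and 4.47 and 32.3 in TBI+MT. The groups overlapped there apart from TBI and TBI+CB. A second Pik3r4 probe, GE1247893, also above background on all 32 arrays, gave 3.79 and 4.94 in Sham 4 h and 3.87 and 5.04 in TBI 4 h, so that the probes disagreed (0.03 ± 0.50 on the log2 scale). TBI+CB against TBI was 0.47 at 4 h and -0.84 at 24 h by GE1247893, and -0.81 and 1.05 by GE14348, of opposite sign at both times. TBI+MT against TBI was 0.15 and -0.72 by GE1247893, and -1.16 and -0.16 by GE14348.

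Among 8183 named genes (8204 for Rps6kb1), those whose log2 levels followed each member most closely over the 16 pools (15 for Rps6kb1) are given with Pearson's r as a description, since the pools share slide runs and brightness. They were Strn4 (0.945), Srp68 (0.933) and Wars1 (0.926) for Akt1, and Pgm2 (0.774), Senp7 (0.766) and Itprid2 (0.751) for Akt2. For Pik3ca they were Hspd1, Tmem14c and Coprs (0.987 to 0.988) by GE1182666, and Adgrl1 (0.904), Rab8b (0.903) and Nell2 (0.895) by GE1206988, with no gene shared. They were Zfp483 (0.935), Disp3 (0.933) and Hdgfl1 (0.932) for Inpp5d, and Ptp4a1 (0.962), Utp3 (0.947) and Psma4 (0.947) for Rps6kb1. For Eif4ebp1 they were the class II antigen gene RT1-Ba (0.856), the actin cross-linker gene Flna (0.839) and Ifi27l2b (0.807), and for Ilk they were Rpgrip1l (0.932), Aimp1 (0.918) and Plekha1 (0.913). Among the members themselves, r was highest between Rps6kb1 and Pik3ca GE1182666 (0.84) and lowest between Inpp5d and Rps6kb1 (-0.71).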

How the data were processed

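Each of the 32 one-colour CodeLink rat whole genome arrays came as 1 scanner file read, per the file headers, with CodeLink Expression Analysis 4.1.0.29054. The authors deposited raw intensities, which appear to be background-subtracted since some are below 0, and intensities divided by the array median; their series value table holds the same intensities times 1 factor per array, with low values set to a floor. The precision is limited by the number of arrays and pools. From the raw intensity, irregular and masked spots were left out, values were divided by the array median, those under 0.1 were set to 0.1, log2 was taken, and the 2 arrays of a pool were averaged. A probe was kept where 1 or more groups had all 4 arrays above background by the scanner flag. All 16 pools entered 1 limma fit of group means (limma 3.58.1, R 4.3.3, lmFit, contrasts.fit and eBayes, 8 residual and 3.88 prior degrees of freedom), with Benjamini-Hochberg adjustment over all probes and a threshold of 0.05. A log2 fold change was computed for 8 comparisons at matched times and 3 differences between the times. A probe above background on no array of a group has only a bound there: the mean of the brighter group was set against the higher of the dimmer probe's level and the lowest level above background on its arrays. That lowest level is taken over all probes, and some spots not above background exceeded it. For Rps6kb1 on array b of TBI+CB 4 h pool 1, the level was 1.78 beside 1.38. The bounds are therefore approximate, and a bound near 1 gives no sure direction.

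Probes were named by the platform annotation, with symbols updated through the gene number: 16878 probes had 1 symbol, 182 several and 16789 none, and 16834 symbols were brought up to date. Named genes were the members with every probe, Nfkbia and Pik3r4, the 3 pathway genes with the smallest unadjusted p in each comparison, and the 3 genes most correlated with each member. Gene lists were written from general knowledge: the wider pathway in 8 roles, and cell type markers (pyramidal neurons; interneurons; microglia and leukocytes; astrocytes; oligodendrocytes; endothelium and pericytes). The members and lists were chosen with earlier results of these data known. Promoters came from a RefSeq table of build GRCr8. Alternatives covered normalization, the floor, filters, duplicate arrays, the variance model, slide runs, the sample number as a block, and each pool left out in turn.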

Additional observations from a re-analysis of the deposited data

How the results depend on the processing

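Of 933 values of the members recomputed under 36 alternatives, for the 31 member values that were over 2-fold or had an unadjusted p under 0.05, 931 kept their direction. The exceptions were Pik3ca GE1182666 in TBI+MT against TBI+CB at 24 h, which was 0.54 without TBI+MT 24 h pool 1 (-2.80 to 0.54 when each pool was left out), and Rps6kb1 in TBI against sham at 24 h, which was 0.29 without Sham 24 h pool 1 (-2.31 to 0.29). Many of the 933 values could not change, since leaving out a pool of a group outside a comparison does not alter the fitted value. The intensity trend and the lack of a filter do not alter it either. The count of kept directions is therefore no measure of stability. No member had an adjusted p under 0.05 under any alternative. The 19 member values over 2-fold became 0 with probes above background on all 32 arrays, where Pik3ca GE1206988 was the only member, and 15 to 24 when each pool was left out in turn.

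The number of probes with an adjusted p under 0.05, 0 in each comparison, changed as follows. For TBI against sham at 4 h it was 2 of the 820 probes whose replicates were within 2-fold, 1 with array b alone, 1 with all arrays and the pool as a random block, 2 with the groups of that time alone, and 0 to 47 when each pool was left out, with 47 without TBI 4 h pool 1. For TBI against sham at 24 h it was 1 with replicates within 2-fold, 2 with array a and 12 with the random block. For TBI+MT against TBI at 4 h it was 2 with replicates within 2-fold, 49 with the slide run as a block, 49 within the run, and 0 to 49 when each pool was left out, with 49 without TBI 4 h pool 1. For TBI+CB against TBI at 4 h it was 1 with the random block, 1 with the slide run as a block, 1 within the run, and 0 to 1 when each pool was left out. For TBI+MT against TBI at 24 h it was 193 with replicates within 2-fold and 2 with array a. For TBI+CB against TBI at 24 h it was 357 with replicates within 2-fold, 2 with quantile normalization, 1 with a floor of 0.5, 1 without a filter, 1 with array a, 4 with array b, 1 with the random block, 2 with an intensity trend, 2 with the mean of a gene's probes, 7 without both dim pools (chosen after seeing the data), and 0 to 15 when each pool was left out, with 15 without TBI+CB 24 h pool 1. For TBI+MT against TBI+CB it was 2 with replicates within 2-fold and 1 with array b at 4 h, and at 24 h 6 with replicates within 2-fold, 3 with array b, 1 with the random block and 0 to 1 when each pool was left out. For the difference between the times it was, in TBI against sham, 1 with a floor of 0.01 and 0 to 1 when each pool was left out, in TBI+MT against TBI, 16 with replicates within 2-fold, and in TBI+CB against TBI, 1 with quantile normalization, 194 with replicates within 2-fold and 2 with the random block. The filter on replicates keeps probes by their spread, and all 8 members failed it; the cause of the other changes was not tested.

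With the sample number as a replicate block, 0 probes were called in all 11 comparisons and 19 member values were over 2-fold. The 28 correlations of same-numbered pools ran from -0.57 to 0.56 with a median of 0.005, so that the pools share only a number. Background correction by normexp was not run, since the scanner files used here hold no separate signal and background columns. Signal over background limits the 24 h drug groups, where the lowest level above background was 1.79 to 2.02 in the dim pools.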
